A study of Mus musculus with 12 samples.

Results

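The genes of the translation initiation and elongation factors are the 71 protein-coding mouse genes whose symbols begin with Eif1 to Eif6, Eef1 or Eef2, out of 21887 protein-coding genes on the autosomes, X and Y. They were picked by symbol alone, though with earlier results of these data known. A further 14 pseudogenes and 1 lncRNA whose symbols match were left out. A gene was counted as bound, or as having a call, when a called region came within 1 kb of its first or last annotated base (build mm10, also named GRCm38). Chromatin immunoprecipitation followed by sequencing (ChIP-seq) mapped BRD2 and BRD3, proteins that carry bromodomains, in RAW264.7, a mouse line that the labels call monocyte-derived and assign to bone marrow. The groups were untreated cells, cells given RANKL (50 ng/ml), cells given the bromodomain inhibitor I-BET (500 nM) and cells given both, each treatment for 4 h. Each antibody and treatment had 1 library and 1 deposited list of regions, 8 lists in all, and the 4 input libraries were not used here. With 1 library a group there is no replicate error, so no treatment difference below carries a test or a replicate check, and the calls also move with depth and enrichment, which the lists do not give.

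Translation initiation loads the small ribosomal subunit onto a capped mRNA. The eIF2 complex brings the initiator tRNA, eIF3 is the large scaffold on the small subunit, the eIF4 factors bind the cap and unwind the leader, and eIF5 and eIF5B drive start-site selection and subunit joining. During elongation eEF1A delivers aminoacyl-tRNA to the ribosome and eEF2 moves the ribosome along the mRNA. Every growing cell needs these proteins. RANKL drives macrophage-like precursors towards bone-resorbing osteoclasts, and BRD2 and BRD3 bind acetylated histones through the bromodomains that I-BET occupies.

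The promoters below belong to members that stand for the binding patterns described later. Eif4e (the cap-binding protein) had calls in 7 lists, the most of any member, and Eif2a (an initiation factor that can deliver initiator tRNA outside the eIF2 route) and Eif4g1 (the scaffold of the cap-binding complex) had calls in 6, as did Eif4h, not shown. Eif3b (a core eIF3 subunit) had calls with BRD2 in all treatments and none with BRD3. Eif1 (a guard of start-codon choice) had calls with BRD3 in all treatments and none with BRD2. Eef1a1 (the main eEF1A gene) had BRD3 calls in both lists without I-BET and a BRD2 call with I-BET alone. Each sequence runs from 250 bases before the RefSeq start (GRCm38.p6) to 30 bases from it, on the strand of the gene. Where a gene has several listed starts, the one nearest the called regions is shown. Capitals mark matches, on either strand, to 7 motifs: CACGTG (the E-box bound by MYC with MAX and by USF), CCAAT (the box bound by NF-Y), TATAA (the TATA box core), CGGAAG (an ETS core), the NRF1 palindrome, AAGATGGC (a YY1 core) and GGGCGG (the GC box of SP1). No matches overlapped one another in these 6 promoters, and the NRF1 and YY1 motifs had none. The positions are chr3:138527018-138527297 (plus strand) for Eif4e, chr3:58525571-58525850 (plus) for Eif2a, chr16:20672477-20672756 (plus) for Eif4g1, chr5:140419055-140419334 (plus) for Eif3b, chr11:100319699-100319978 (plus) for Eif1 and chr9:78481695-78481974 (minus) for Eef1a1.
Eif4e: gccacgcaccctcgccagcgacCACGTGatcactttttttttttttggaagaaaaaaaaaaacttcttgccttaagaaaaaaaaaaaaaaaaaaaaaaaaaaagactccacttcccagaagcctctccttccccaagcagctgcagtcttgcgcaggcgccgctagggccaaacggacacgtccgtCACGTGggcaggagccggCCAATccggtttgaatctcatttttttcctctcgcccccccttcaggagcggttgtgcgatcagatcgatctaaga
Eif2a: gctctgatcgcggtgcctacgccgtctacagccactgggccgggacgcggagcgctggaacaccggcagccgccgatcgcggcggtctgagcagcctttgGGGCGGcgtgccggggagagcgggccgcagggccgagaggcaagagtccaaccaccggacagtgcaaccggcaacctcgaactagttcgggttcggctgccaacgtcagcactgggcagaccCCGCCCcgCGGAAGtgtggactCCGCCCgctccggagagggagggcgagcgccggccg
Eif4g1: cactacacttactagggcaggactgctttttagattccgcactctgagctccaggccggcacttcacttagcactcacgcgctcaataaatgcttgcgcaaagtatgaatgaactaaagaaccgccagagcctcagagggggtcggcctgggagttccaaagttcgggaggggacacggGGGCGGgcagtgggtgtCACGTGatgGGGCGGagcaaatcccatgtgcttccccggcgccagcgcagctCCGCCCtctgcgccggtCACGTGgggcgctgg
Eif3b: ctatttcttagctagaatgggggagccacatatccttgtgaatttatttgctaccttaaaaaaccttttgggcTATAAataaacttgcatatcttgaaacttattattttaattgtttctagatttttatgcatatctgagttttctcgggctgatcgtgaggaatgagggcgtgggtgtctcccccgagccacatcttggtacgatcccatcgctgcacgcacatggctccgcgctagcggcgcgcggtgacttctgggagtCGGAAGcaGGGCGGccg
Eif1: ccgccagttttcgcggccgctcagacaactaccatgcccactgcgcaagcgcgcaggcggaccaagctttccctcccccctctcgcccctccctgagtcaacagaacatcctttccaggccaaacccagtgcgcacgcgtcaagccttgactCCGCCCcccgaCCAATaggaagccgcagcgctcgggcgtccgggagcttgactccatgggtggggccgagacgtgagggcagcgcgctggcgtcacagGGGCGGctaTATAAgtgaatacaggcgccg
Eef1a1: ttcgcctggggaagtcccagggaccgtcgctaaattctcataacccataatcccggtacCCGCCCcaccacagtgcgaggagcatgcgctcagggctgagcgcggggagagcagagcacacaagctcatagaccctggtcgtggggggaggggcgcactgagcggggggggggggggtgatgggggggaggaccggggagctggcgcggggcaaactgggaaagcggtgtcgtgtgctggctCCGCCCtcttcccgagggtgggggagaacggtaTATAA
The Eif4e and Eif4g1 promoters each held 2 copies of CACGTG, and those of Eif2a, Eif3b, Eif1 and Eef1a1 held none. GGGCGG occurred 3 times each in Eif2a and Eif4g1, 2 times each in Eif1 and Eef1a1, once in Eif3b and not in Eif4e.

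In all, 39 of the 71 genes (54.9%) had a call in at least 1 of the 8 lists, where 21.2% of all protein-coding genes did. In the BRD3 lists the bound members numbered 27 in untreated cells (38.0%, exact 95% interval 26.8% to 50.3%), 25 with RANKL (35.2%, 24.2% to 47.5%), 19 with I-BET (26.8%, 16.9% to 38.6%) and 21 with both agents (29.6%, 19.3% to 41.6%). All protein-coding genes stood at 14.0%, 13.7%, 9.73% and 11.9% in the same order. In the BRD2 lists the members numbered 8 (11.3%, 4.99% to 21.0%), 14 (19.7%, 11.2% to 30.9%), 15 (21.1%, 12.3% to 32.4%) and 5 (7.04%, 2.33% to 15.7%), beside 2.26%, 6.21%, 3.79% and 0.978% of all genes. The share of members was above that of all genes in each of the 8 lists. The intervals cover counting error only, and all genes include silent ones, so this gap is a description of these lists. The order of the BRD3 counts followed that of all genes. For BRD2 the I-BET list held 15 members and the RANKL list 14, and without the read-through gene Eef1akmt4-ece2, which shares its regions with Eef1akmt4, both held 14. Counting starts only gave 14 with I-BET and 15 with RANKL, and in lists of equal length the counts were 4 and 1, below the 5 of both agents, so the BRD2 lists have no firm order. Taken over treatments, 25 members had a BRD2 call (35.2%, beside 8.84%) and 29 a BRD3 call (40.8%, beside 17.4%).

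**Figure D1:**
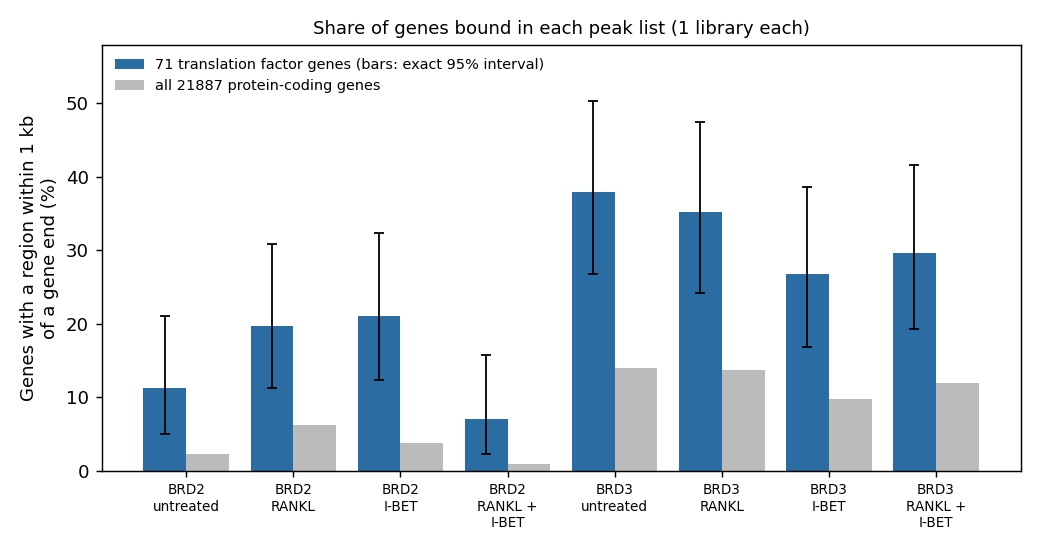
Share of the 71 translation factor genes (blue, with exact 95% binomial intervals) and of all 21887 protein-coding genes (grey) with a region within 1 kb of a gene end, in percent, for each of the 8 lists. Members stand above all genes in every list, from 7.04% against 0.978% (BRD2, RANKL with I-BET) to 38.0% against 14.0% (BRD3, untreated).

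The line's identity was looked at in the same lists. Of 12 monocyte and macrophage genes, 10 had a call in at least 1 list, beside 21.2% of all genes, and of 24 markers of B cells, T and NK cells, erythroid cells, fibroblasts and osteoblasts none had one. The macrophage genes with a BRD3 call numbered 7 without treatment and 8, 1 and 0 under RANKL, I-BET and their combination, and those with a BRD2 call 2, 7, 6 and 2 in the same order. Lists ran from 245 to 3840 regions, and 98.41% to 99.96% of the regions of a list joined exactly 3 peaks.

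By role, calls were spread over most complexes. The counts that follow stand beside 21.2% of all genes with a call in any list, and for groups of 1 to 7 genes they are too small to set against it. Of the 14 eIF3 genes 9 had a call, of the 13 eIF4 genes 9 and of the 6 eIF2, eIF2A and eIF2D genes 4. Of the 5 genes of eIF2B (the nucleotide exchange factor that recharges eIF2) 3 had a call, as did 3 of the 6 genes grouped by symbol as eEF1. Eef2, Eif5a, Eif5 and Eif5b each had calls. No call in any list was found at the 4 kinases that phosphorylate eIF2 (Eif2ak1, Eif2ak2, Eif2ak3, Eif2ak4), at the 4E-binding protein genes Eif4ebp1, Eif4ebp2 and Eif4ebp3, at the 4E transporter gene Eif4enif1 or at the eEF2 kinase gene Eef2k. Of the 7 genes of eEF1A and eEF2 methyltransferases 5 had a call, though Eef1akmt4 and its read-through gene Eef1akmt4-ece2 share a start and all of their regions. Of the 5 eIF1 and eIF1A genes 2 had a call, Eif1 and Eif1b.

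The 32 genes without a call (45.1%, beside 78.8% of all genes) held the genes just named and others of eIF2, eIF2B, eIF3, eIF4 and eEF1. Among initiation factors they were Eif1a, Eif1ad, Eif1ax, Eif2d, Eif2s3y, Eif2b2, Eif2b5, Eif3c, Eif3g, Eif3i, Eif3j2, Eif3l, Eif4a3l1, Eif4e1b, Eif4e3, Eif4g3, Eif5a2 and Eif6 (which keeps free large ribosomal subunits apart from small ones). Among genes with Eef symbols, a grouping by name only, they were Eef1a2 (the eEF1A paralog of muscle and neurons), Eef1b2, Eef1e1, Eef1akmt3 and Eef2kmt. Median gene length was 15294 bp in these genes and 17372 bp in the bound ones. Eif4g3, a paralog of Eif4g1, was the one gene among them with a region inside it or within 3000 bp, in 2 BRD2 lists. The regions were 341 bp wide in untreated cells and 1049 bp with RANKL, 1647 bp and 1662 bp from the gene end. Both lie within 1 kb of a listed start inside the gene, so counting starts only makes Eif4g3 bound in these 2 lists. The calls nearest to the 1 kb limit, each in 1 list, were regions 829 bp from the nearer gene end at Eif4a1, 608 bp at Eef1akmt2 and 571 bp at Eif4e. The last 2 of these cover a listed start inside the gene.

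**Figure D2:**
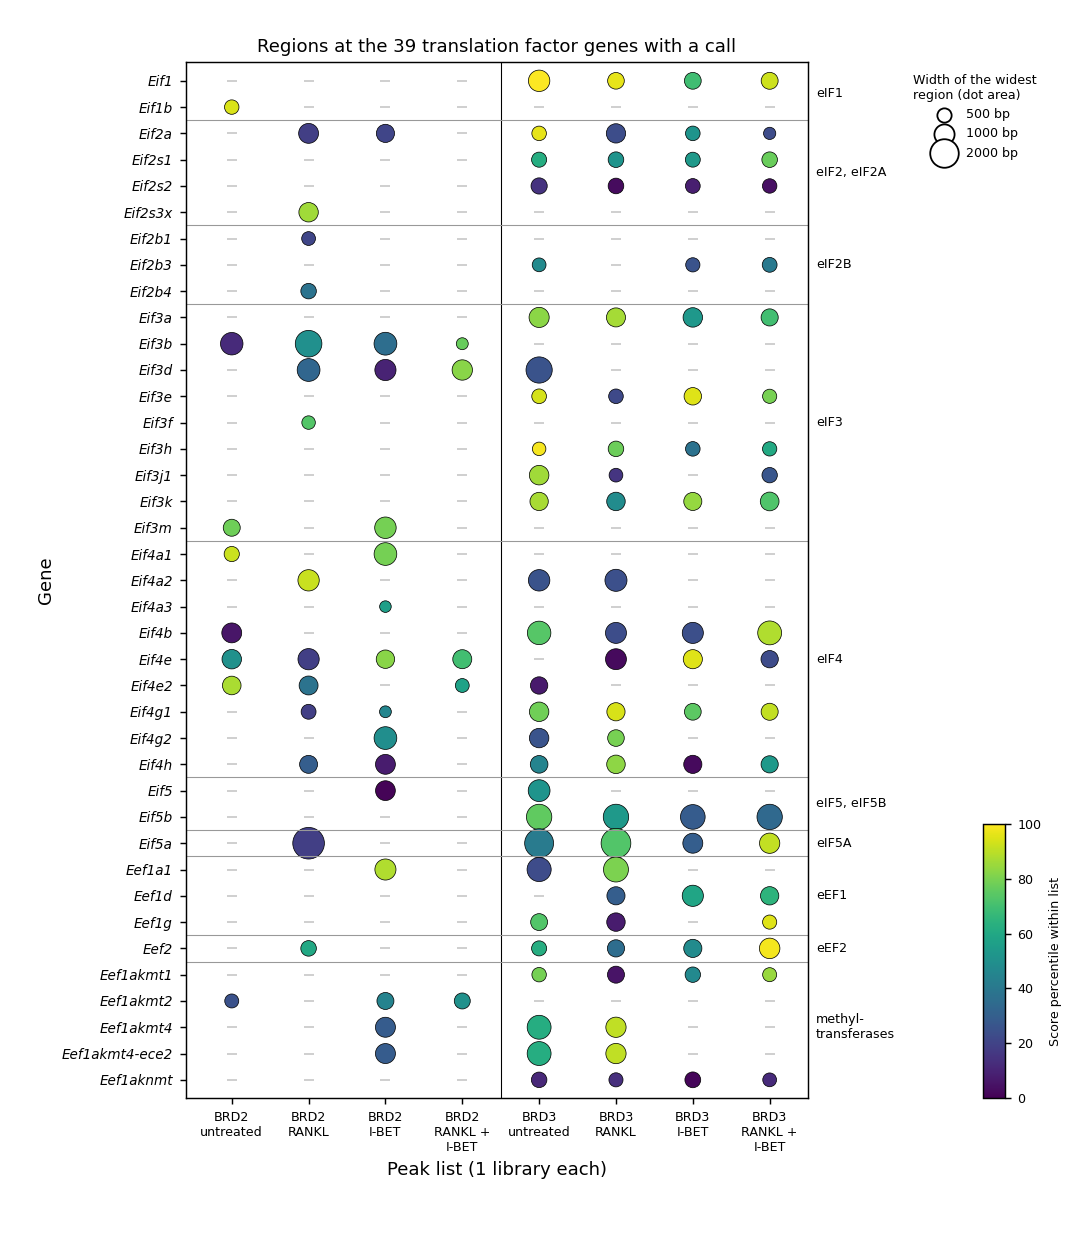
The 39 translation factor genes with a call (rows, by complex) in the 8 lists (columns). Dot area is the width of the widest region in bp, colour is the percentile of that region's score within its own list, and a dash means no call. The right-hand columns show 16 rows with BRD3 dots in all treatments, the left-hand columns only 2 rows with BRD2 dots in all treatments (Eif3b and Eif4e).

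BRD3 was called at 16 members in all 4 treatments (22.5%, beside 7.65% of all genes). They were the eIF2 genes Eif2s1 and Eif2s2, which encode the alpha and beta subunits, Eif2a, the eIF3 genes Eif3a, Eif3e, Eif3h and Eif3k, the cap-complex genes Eif4b, Eif4g1 and Eif4h, the genes Eif1, Eif5a, Eif5b and Eef2, and the methyltransferase genes Eef1akmt1 and Eef1aknmt. At Eif1 the BRD3 region was 1124 bp wide in untreated cells, 681 bp with RANKL, 693 bp with I-BET and 705 bp with both. Its score lay at the 99.6th, 96.1st, 69.5th and 92.2nd percentile of the 4 lists in that order, lowest with I-BET. The score is the authors' own value per region and is read here only as a rank within its list.

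Eif5a had the widest region of any member in the untreated and RANKL lists of BRD3. Its product, which carries the hypusine modification, helps the ribosome past difficult peptide bonds. The region measured 2050 bp in untreated cells and 2167 bp with RANKL, against 977 bp with I-BET and 1008 bp with both agents. Both lists with I-BET thus had the narrower region. The edge that differed was the one inside the gene, which is read on the minus strand. On chromosome 11 the region began at 69920076 in untreated cells and 69919988 with RANKL. With I-BET alone and with both agents it began at 69921031 and 69921016. Its other edge lay between 69922007 and 69922154 in the 4 lists. Eif5a has 6 listed starts, and how the edges lie to each of them was not examined. At Eif5b, the subunit-joining GTPase gene, widths stayed between 1492 bp and 1582 bp in all treatments. The Eif5b region also lies at the end of the neighbouring gene Txndc9.

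Over the members, BRD3 widths with and without I-BET compared much as over all genes. Of the 17 members with a BRD3 call in untreated cells and with I-BET, 9 had a narrower widest region with I-BET, and the median ratio of widths was 0.980, beside 51.9% and 0.987 over the 1868 genes called in both. From RANKL to RANKL with I-BET 14 of 20 were narrower (median ratio 0.909), beside 65.7% of 2297 genes (0.934). For BRD2 the pairs were few: from RANKL to RANKL with I-BET 4 of 4 were narrower (median ratio 0.668, beside 89.3% and 0.690 over 131 genes), and from untreated cells to I-BET 1 of 5 was (1.48, beside 42.1% and 1.06 over 233 genes). These pairs take the widest region of a gene wherever it lies. The 5 include Eif4a1, with 567 bp beyond the 3' end against 1262 bp near the start. The 17 BRD3 pairs include Eef2, with 556 bp at the start against 808 bp at the other gene end. These 2 pairs do not compare 1 site.

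**Figure D3:**
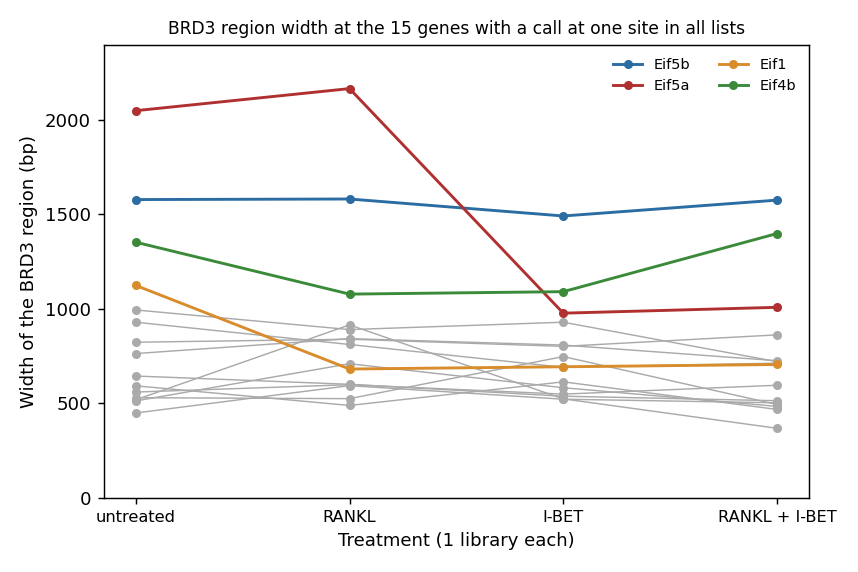
Width in bp of the BRD3 region in the 4 treatments at 15 genes called in all of them, each point 1 region in 1 library (lines join a gene's points; Eef2 is left out because its I-BET region lies at the other gene end). Eif5a measures 2050 and 2167 bp without I-BET and 977 and 1008 bp with it, Eif5b stays between 1492 and 1582 bp, and the genes other than Eif5b, Eif5a, Eif4b and Eif1 stay below 1000 bp.

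Eef2 met the rule in all BRD3 lists but not at the same place. At its start the BRD3 region was 556 bp wide in untreated cells, 675 bp with RANKL and 400 bp with both agents, and the I-BET list had none there. The I-BET call, 808 bp wide, lay 157 bp from the other gene end and within 1 kb of an end of the neighbouring gene Dapk3. Regions at that end were also listed with RANKL (727 bp) and with both (1030 bp). In the list of RANKL with I-BET the 2 regions of Eef2 ranked at the 96.1st and 98.2nd percentile by score.

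Between untreated cells and RANKL, most BRD3 calls at the translation factor genes were shared. Of the 27 members bound in untreated cells, 23 were bound with RANKL (85.2%, 66.3% to 95.8%), beside 78.4% of all bound genes. The share of members was 47.1% with the top 50% of each list by score and 55.0% with lists of equal length. The share of all genes was not computed under these cuts. Those in the untreated list alone were Eif2b3 (the eIF2B gamma subunit), Eif3d (an eIF3 subunit that can bind the cap), Eif4e2 (a cap-binding repressor) and Eif5. Eef1d (an eEF1A exchange factor subunit) and Eif4e were in the RANKL list alone. The untreated regions were 467 bp wide at Eif2b3, 739 bp at Eif4e2, 1166 bp at Eif5 and 1688 bp at Eif3d. For Eef1d and Eif4e the RANKL regions measured 805 bp and 1070 bp, and Eif4e ranked at the 2.38th percentile of that list by score, near its lowest values. Genes in the untreated list alone and in the RANKL list alone made up 3.02% and 2.75% of all genes.

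With I-BET alone, 17 of the 27 members had a BRD3 call (63.0%, 42.4% to 80.6%), close to the 60.9% of all bound genes. The share of members was 41.2% with the top 50% of each list by score, a cut that was not run on all genes. The 10 members called in untreated cells but missing from the I-BET list were Eef1a1, Eef1akmt4 and its read-through gene, Eef1g, Eif3d, Eif3j1, Eif4a2, Eif4e2, Eif4g2 and Eif5. Eef1d and Eif4e had a call with I-BET and none in untreated cells. Genes of the first kind made up 5.47% of all genes and genes of the second kind 1.20%. Of the 25 members bound with RANKL, 20 had a call with RANKL and I-BET together (80.0%, 59.3% to 93.2%, beside 76.5%). The 5 without one were Eef1a1, Eef1akmt4 and its read-through gene, Eif4a2 (a paralog of the eIF4A helicase) and Eif4g2 (a scaffold relative of eIF4G that lacks the cap-binding arm), and Eif2b3 had the reverse. The corresponding shares of all genes were 3.23% and 1.37%.

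These 5 members, at 4 loci, were the ones with a BRD3 call in both lists without I-BET and in neither list with it (7.04%, beside 1.39% of all genes). The Eef1a1 region was 1426 bp wide in untreated cells and 1529 bp with RANKL. The Eif4a2 region was 1127 bp and 1192 bp. Eif4g2 had 930 bp and 677 bp, and the Eef1akmt4 region, which also lies at an end of Alg3, had 1400 bp and 1007 bp. All 8 of these regions were wider than the median over regions at gene ends in their list, 687.0 bp in untreated cells and 653.5 bp with RANKL. Regions at members were wider in general, with medians of 876.0 bp and 811.0 bp in these lists. The Eif4g2 region with RANKL was narrower than the members' median and the others were wider. Eef1g (an eEF1 complex subunit) and Eif3j1 (a loosely bound eIF3 subunit) were without a BRD3 call in the I-BET list only. Their regions in the other lists measured 700 bp, 834 bp and 491 bp for Eef1g and 936 bp, 463 bp and 580 bp for Eif3j1, in the order untreated, RANKL and both. RANKL on top of I-BET thus had every member of the I-BET list, 19 of 19 (100%, 82.4% to 100%), beside 93.9% of all genes, and these 2 in addition. Genes in the I-BET list alone and in the other alone made up 0.594% and 2.73% of all genes.

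BRD2 calls at the members differed more from list to list. Of the 8 members bound in untreated cells, 3 were bound with RANKL (37.5%, 8.52% to 75.5%), beside 54.0% of all bound genes: Eif3b, Eif4e and Eif4e2. None was shared with the top 50% by score (of 5 members) or with lists of equal length (of 4). These cuts were not run on all genes. Eif1b (an eIF1 paralog), Eif3m, Eif4a1 (the main eIF4A helicase gene), Eif4b and Eef1akmt2 were in the untreated list and not the RANKL list. The RANKL list alone had 11 members: Eef2, Eif2a, Eif2b1, Eif2b4, Eif2s3x (the X-linked eIF2 gamma gene), Eif3d, Eif3f, Eif4a2, Eif4g1, Eif4h and Eif5a. Background shares were 1.04% for the first kind and 4.99% for the second. Of these 11, the 7 without a BRD2 call in any other treatment were Eef2, Eif2b1, Eif2b4, Eif2s3x, Eif3f, Eif4a2 and Eif5a (9.86% of members, beside 3.61% of all genes). The Eif2b1 and Eif2b4 regions, 467 bp and 590 bp wide, also lie at ends of Gtf2h3 and Snx17.

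With I-BET alone, 5 of the 8 had a BRD2 call (62.5%, 24.5% to 91.5%, beside 47.2%), and 10 members were in the I-BET list without being in the untreated one (2.73% of all genes were). These were Eef1a1, Eef1akmt4 with its read-through gene, Eif2a, Eif3d, Eif4a3 (a helicase of the exon junction complex), Eif4g1, Eif4g2, Eif4h and Eif5. Eif1b, Eif4b and Eif4e2 had the reverse (1.19% of all genes). At Eif4a1 the BRD2 calls were at different ends. The untreated region, chromosome 11, 69665541 to 69666107, lay 829 bp outside the 3' end and also within reach of the macrophage gene Cd68, whereas the I-BET region, 69671017 to 69672278, lay inside the gene within 1 kb of its start and also near an end of Senp3.

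With both agents BRD2 was called at 5 members, and 4 of the 14 bound with RANKL were among them (28.6%, 8.39% to 58.1%, beside 9.63% of all bound genes): Eif3b, Eif3d, Eif4e and Eif4e2. This share too was 0% under either cut by score, of 4 members with the top 50% and of 1 with lists of equal length. The share of all genes was not computed under these cuts. Eef1akmt2 (a lysine methyltransferase of eEF1A) was called with both agents and not with RANKL (0.379% of all genes were). The 10 in the RANKL list alone were the 11 named above without Eif3d, beside 5.62% of all genes. Set against I-BET alone, 4 of 15 were in both lists (26.7%, 7.79% to 55.1%, beside 15.4%), with 11 members in the I-BET list alone and Eif4e2 in the other alone, where all genes stood at 3.21% and 0.393%.

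Eif3b and Eif4e had a BRD2 call in all 4 treatments (2.82%, beside 0.224% of all genes). The Eif3b region was 1239 bp wide in untreated cells, 1736 bp with RANKL, 1276 bp with I-BET and 350 bp with both. The 350 bp region was the only one that did not reach the start, and its midpoint lay at -650 bp, where negative values are upstream. The Eif4e regions were alike in the 4 lists, at 929 bp, 1106 bp, 831 bp and 886 bp, and the BRD3 regions there measured 1070 bp with RANKL, 896 bp with I-BET and 736 bp with both. Score placed the Eif4e region at the 95.3rd percentile of the BRD3 I-BET list and the 82.1st of the BRD2 I-BET list, its highest ranks.

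Eif2a, Eif4g1 and Eif4h had BRD3 calls in all treatments and BRD2 calls with RANKL alone and with I-BET alone. Eif2a (chromosome 3, 58525821 to 58557501) had BRD3 regions of 518 bp in untreated cells, 915 bp with RANKL, 523 bp with I-BET and 367 bp with both, at the 96.3rd, 23.4th, 51.7th and 23.0th percentile by score, and BRD2 regions of 969 bp with RANKL and 810 bp with I-BET. Eif4g1 (chromosome 16, 20672720 to 20692883) had BRD3 regions of 929 bp, 811 bp, 690 bp and 712 bp in that order, at the 78.5th, 94.1st, 74.9th and 90.9th percentile, and BRD2 regions of 544 bp and 342 bp that began 66 bp and 111 bp downstream of the listed start. Its BRD2 regions thus did not reach the start that all its BRD3 regions covered. Eif4h (chromosome 5, 134619872 to 134639409), whose product stimulates the eIF4A helicase, had BRD3 regions of 763 bp, 842 bp, 808 bp and 725 bp, at the 45.1st, 83.2nd, 2.60th and 53.6th percentile, and BRD2 regions of 791 bp and 967 bp. Eif4b, which also aids eIF4A, had BRD3 regions of 1353 bp, 1078 bp, 1091 bp and 1399 bp and a BRD2 region of 969 bp in untreated cells only. At Eif4e2 BRD2 was called in all treatments but I-BET alone (850 bp, 878 bp and 472 bp) and BRD3 in untreated cells only.

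Some members had calls of both proteins and others of 1 only, as over all genes. Of the 71 genes, 15 had calls of both proteins in some treatment, 10 of BRD2 only and 14 of BRD3 only. The shares of all genes were 5.03%, 3.81% and 12.3%. Of the 25 members with a BRD2 call 15 also had a BRD3 call, beside 1101 of 1935 genes. Of the 29 members with a BRD3 call 15 also had a BRD2 call, beside 1101 of 3799 genes. The first of these fractions was close to that of all genes and the second was above it. Genes with calls of 1 protein only were thus found outside the family too. BRD2 only were Eef1akmt2, Eif1b, Eif2b1, Eif2b4, Eif2s3x, Eif3b, Eif3f, Eif3m, Eif4a1 and Eif4a3. BRD3 only were Eef1akmt1, Eef1aknmt, Eef1d, Eef1g, Eif1, Eif2b3, Eif2s1, Eif2s2, Eif3a, Eif3e, Eif3h, Eif3j1, Eif3k and Eif5b. Subunits of a complex were divided between these groups: in eIF3, Eif3b, Eif3f and Eif3m stood on the BRD2 side and Eif3a, Eif3e, Eif3h, Eif3j1 and Eif3k on the BRD3 side, with Eif3d on both. Of the members in a BRD2 list, those also in the BRD3 list of the same treatment were 2 of 8 in untreated cells (25.0%, 3.19% to 65.1%), 7 of 14 with RANKL (50.0%, 23.0% to 77.0%), 4 of 15 with I-BET (26.7%, 7.79% to 55.1%) and 1 of 5 with both (20.0%, 0.505% to 71.6%). All genes stood at 51.4%, 43.8%, 26.5% and 31.3%, each within those intervals. Members in the BRD2 list alone numbered 6, 7, 11 and 4, beside 1.10%, 3.50%, 2.79% and 0.672% of all genes, and members in the BRD3 list alone 25, 18, 15 and 20, beside 12.8%, 11.0%, 8.73% and 11.6%. Wherever both proteins were called at a member in one treatment, 14 cases in all, the regions overlapped.

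At 6 members, which are 5 loci, the BRD3 call of untreated cells was absent with I-BET while a BRD2 call was absent in untreated cells and present with I-BET. They were Eef1a1, Eef1akmt4 with its read-through gene, Eif3d, Eif4g2 and Eif5. These are 6 of the 10 members with a BRD3 call in untreated cells and none with I-BET, beside 11.3% of the 1197 such genes. Both member counts take Eef1akmt4 and its read-through gene separately. Of the 17 members with BRD3 in both lists, 3 had a BRD2 call on the I-BET side alone, beside 7.28% of the 1868 such genes, and no member had the reverse (0.0320% of all genes had). As a share of all members the 6 were 8.45%, beside 0.617% of all genes. The Eef1a1 regions were 1426 bp (BRD3, untreated) and 1091 bp (BRD2, I-BET), those of Eif3d 1688 bp and 1099 bp, those of Eif4g2 930 bp and 1266 bp, and those of Eif5 1166 bp and 958 bp. The BRD2 region ranked at the 88.1st percentile of its list for Eef1a1 but at the 1.12th for Eif5 and the 9.75th for Eif3d, near the lowest scores listed. With the top 50% of each list by score, or with lists cut to equal length, the count of such members was 0. These cuts were not run on all genes.

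**Figure D4:**
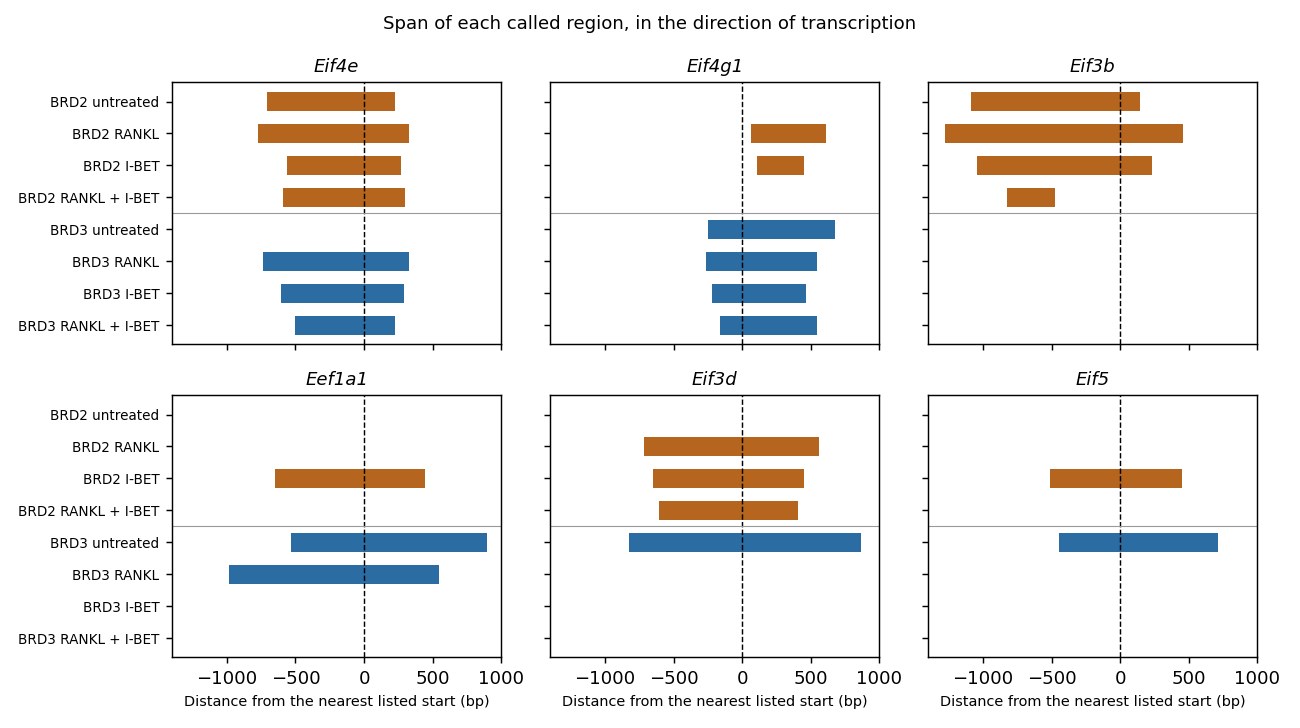
Span of each called region (bars; brown BRD2, blue BRD3) around the nearest listed start (dashed line), in bp in the direction of transcription, at 6 genes in the 8 lists. Eif4e is covered in 7 lists and Eif3b by BRD2 alone, while at Eef1a1, Eif3d and Eif5 the BRD2 bar with I-BET overlaps the BRD3 bar of untreated cells.

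Where a start is listed, nearly all regions at members covered it or lay within 1 kb of it. The same share over all regions at gene ends was not counted. RefSeq starts were listed for 55 of the 71 genes. At those, 21 of 21 BRD3 regions in untreated cells, 16 of 20 with RANKL, 12 of 14 with I-BET and 14 of 16 with both covered a listed start, and so did 7 of 8, 12 of 14, 9 of 14 and 4 of 5 BRD2 regions. These counts take Eef1akmt4 and its read-through gene separately. Median midpoints lay between -103.5 bp and 28.0 bp of the start in all lists. Only the Eef2 and Eif4a1 regions already described were at the other gene end alone. Regions at members had median widths of 876.0 bp, 811.0 bp, 747.0 bp and 650.0 bp in the BRD3 lists (untreated, RANKL, I-BET, both), beside 687.0 bp, 653.5 bp, 652.0 bp and 587.0 bp over all regions at gene ends. For BRD2 they were 779.0 bp, 901.5 bp, 973.0 bp and 627.0 bp, beside 817.0 bp, 828.0 bp, 820.0 bp and 567.0 bp.

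**Figure D5:**
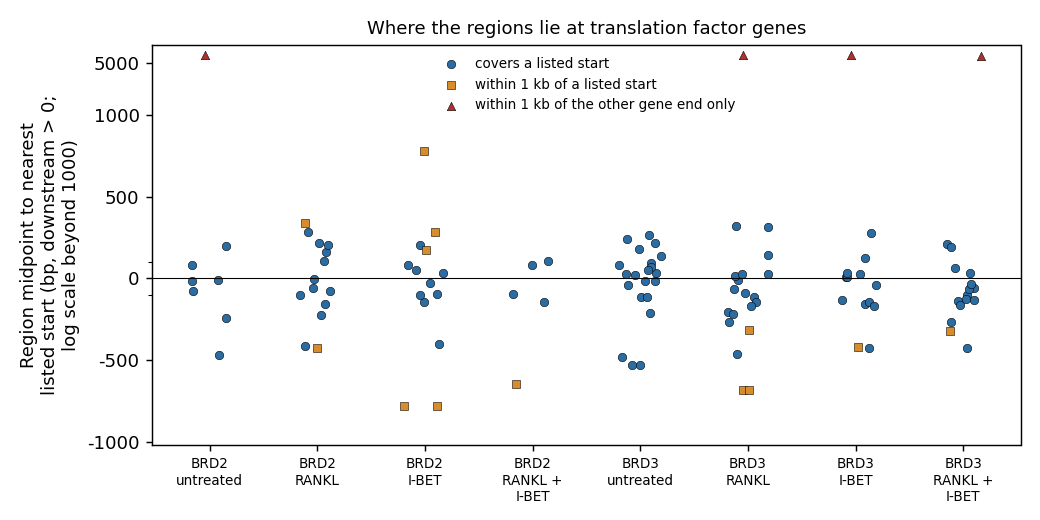
Midpoint of each region at a translation factor gene relative to its nearest listed start, in bp (log scale beyond 1000 bp), by list; circles cover a listed start, squares lie within 1 kb of one and triangles lie at the other gene end only. Midpoints cluster around 0, and the 4 triangles, between 6302 and 6599 bp, are Eif4a1 (BRD2, untreated) and Eef2 (3 BRD3 lists).

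Several regions also lie within 1 kb of a neighbouring gene's end and count for both genes: in the BRD3 lists 6 of 26 untreated regions, 8 of 25 under RANKL, 6 of 19 under I-BET and 7 of 22 under their combination. Besides those named, Eif2a shares its regions with Serp1, Eif3k with Map4k1, Eif2s1 with Atp6v1d (a V-ATPase subunit), Eef1d with Tigd5 and Eef1g with Tut1. For these the lists cannot say which gene the binding belongs to. How often regions at all gene ends are shared in this way was not counted.

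The E-box CACGTG was found in 11 of the 32 bound members with a listed start (34.4%), in 2 of the 23 members without a call (8.70%) and in 7.91% of 17492 promoters of the same length. Here each gene counts once, with its most upstream start, from 250 bases before to 50 after. Among the 13 with BRD3 calls in all treatments it was 6 (46.2%): Eef1aknmt, Eef2, Eif3a, Eif3k, Eif4g1 and Eif4h. Eef1akmt4 and its read-through gene have 1 promoter between them and are counted separately here. The Eif4e promoter printed above, at its other listed start, is not in this count. CGGAAG was found in 13 of 32 bound members (40.6%), 13 of 23 without a call (56.5%), 2 of 13 with BRD3 throughout (15.4%), 6 of 10 with BRD2 calls only (60.0%) and 21.5% of all promoters. AAGATGGC was in 3 of the 32 bound members (9.38%: Eif2s3x, Eif3f and Eif4a1, all with BRD2 calls only), in 2 of the 23 without a call (8.70%) and in 3.21% of all promoters. GGGCGG was in 75.0% of bound members, 69.6% of members without a call and 46.3% of all promoters, with CCAAT in 28.1% of bound members beside 39.2% of all. For TATAA the shares were 18.8% and 22.8%, and for the NRF1 palindrome 3.12% and 1.33%. A start that reads C followed by at least 4 pyrimidines, as in mRNAs with a terminal oligopyrimidine tract, was listed for Eif2s3x and Eif3f only among the 32, beside 2.17% of all. This reads only the exact base listed as the start, which was not checked against mapped mRNA ends. At Eef1a1 the listed start opens with 5 pyrimidines but with T first, so it was not counted. The count thus does not show which mRNAs lack such a tract. Median GC content was 62.3% in bound members, 60.7% in members without a call and 56.3% over all promoters. A match is a string of letters and does not show that a factor binds there.

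Other genes of the translation pathway were read from a fixed list of 52, of which 26 had a call in at least 1 list, beside 21.2% of all genes. BRD3 calls numbered 16, 18, 16 and 18 in the order untreated, RANKL, I-BET and both, and BRD2 calls 4, 7, 6 and 1, beside the shares of all genes given for each list above (14.0%, 13.7%, 9.73% and 11.9%, and 2.26%, 6.21%, 3.79% and 0.978%). Mtor, the growth kinase that acts on the 4E-binding proteins, had calls in every list but BRD2 with both agents. Its target Rps6kb1 and the MNK kinases Mknk1 and Mknk2, which phosphorylate eIF4E, had BRD3 calls in all treatments. The integrated stress response gene Atf4 had calls of both proteins in untreated cells and with RANKL, and of BRD2 alone with I-BET. Dohh, whose product completes the hypusine of eIF5A, had BRD3 calls in all treatments and BRD2 calls in both lists with I-BET. Of 11 matched genes of mitochondrial translation factors 4 had a call in at least 1 list, beside the same 21.2%, with at most 2 in any list.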

How the data were processed

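ChIP-seq of BRD2 and BRD3 gave 8 deposited region lists. The submitters' processing notes name the tools MACS2 2.1.1.20160309, Bowtie2 2.3.4.1 and FastQC and the build mm10/GRCm38. Their settings are not given in the sources used here. Nearly every region joins peaks of 3 numbered sets, as its peak names in the deposited lists show. The score is the authors' value, used to rank and cut regions within a list. The files give no counts, so depth and precision per library are unknown. Positions are counted from 1.

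Gene ends came from the RefSeq gene table and starts from the RefSeq promoter table (GRCm38.p6), matched by gene identifier. Promoters were listed for 55 of 71 members. A region overlapping by 1 bp the window of 1 kb around a gene end made the gene bound. Shares carry exact Clopper-Pearson 95% intervals (scipy 1.17.1, Python 3.11.15). The window step was tested on simulated regions. No test between treatments was possible with 1 library each.

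Members and lists were chosen with earlier results of these data known. Any member could be named. All members in 1 list of a comparison and not the other were named, and fuller values went to members in the most lists and to those whose calls differed between treatments for both antibodies. Promoters were printed for members in the most lists and for 3 of contrasting pattern. Of the 3 members tied at 6 lists, 2 promoters were printed, in alphabetical order. Alternatives were other windows, starts only, midpoints, the gene body, the top 50% by score, lists of equal length and a stricter overlap.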

Additional observations from a re-analysis of the deposited data

Results flagged for a closer look

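Under the same contrast, BRD2 and BRD3 calls went in opposite directions at several members, with a BRD2 call present and the BRD3 call absent after treatment. The difference was not tested, since each list is 1 library. From untreated cells to I-BET this held for Eif4g2 (BRD2 region 1266 bp wide), Eef1a1 (1091 bp), Eif5 (958 bp), Eif3d (1099 bp), Eef1akmt4 (979 bp) and its read-through gene Eef1akmt4-ece2 (the same 979 bp region). From untreated cells to RANKL it held for Eif3d (1273 bp). No member had the reverse in any of the 4 contrasts.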

How the results depend on the processing

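No paired analysis was possible because each group has 1 library and no comparison carries a test. Each of the 28 planned values, and the count of members with a BRD3 call absent and a BRD2 call present under I-BET, was recomputed with the top 50% of each list by score. The window, start, midpoint, gene body and equal-length settings, and 2 settings added after the data were seen (read-through gene left out, regions shared with a neighbouring gene left out), were run on 21 of these 29 results. The other 8, the overlaps between regions, had the stricter overlap instead. Windows of 2 kb, starts only, midpoints, the gene body, the stricter overlap and the 2 added settings kept counts within 1.5 times and shares within their intervals. Score cuts did not. By the top 50% of each list, bound members numbered 5, 4 and 5 for BRD2 (untreated, RANKL, I-BET) and 17, 12 and 9 for BRD3. In lists of equal length they were 4, 1 and 4 for BRD2 and 13 for BRD3 with RANKL. The share of members kept was then 0% for BRD2 from untreated to RANKL and from RANKL to both, under either cut. The first rests on 5 members (top 50%) and 4 (equal length), the second on 4 and 1. The BRD3 shares of members kept are as follows. For BRD3 from untreated to RANKL the share was 47.1% (top 50%) and 55.0% (equal length). With the top 50% it was 41.2% from untreated to I-BET, 58.3% from RANKL to both and 77.8% from I-BET to both. Members of a BRD2 list also in the BRD3 list were 0% in untreated cells and with both agents under either cut, and with RANKL 0% (top 50%) and 21.4% (equal length). With both agents a window of 500 bp also gave 0%, since the Eif4e region lies 571 bp from the gene end. In the full lists, BRD2 member regions overlapping one of the second list were 3 of 8 from untreated to RANKL (all gene-end regions: 227 of 415). From untreated to I-BET they were 4 of 8 (195 of 415). From RANKL to both they were 4 of 14 (113 of 1130), and from I-BET to both 4 of 14 (110 of 687). For BRD3 the share was 84.6% from untreated to RANKL (77.9%) and 61.5% from untreated to I-BET (60.7%). It was 84.0% from RANKL to both (76.9%) and 100% from I-BET to both (94.5%). By the top 50%, the BRD2 share was 0% from untreated to RANKL and from RANKL to both. The BRD3 share was then 43.8% from untreated to RANKL, 63.6% from RANKL to both and 77.8% from I-BET to both. The count of opposite calls was 0 under either cut. Cut lists hold fewer regions and so fewer bound members by construction. The cuts were run on members only, so no share of all genes stands beside the cut values. Depth limits all counts and is not given.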
